A study of Mus musculus with 19 samples.

Results

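*Magi1*, *Magi2*, *Dlg2* and *Pard3b* are 4 of the 8336 genes for which extrachromosomal circular DNA (eccDNA) was measured in the cervical spinal cord of symptomatic *hSOD1G93A* mice (ALS, n = 9) and control mice (n = 10). The genes were chosen by name as membrane scaffolds, with earlier results of these data known, and all 19 libraries were used, 1 per animal. ALS animals were males of the line B6.Cg-Tg(SOD1*G93A)1Gur/J, which constitutively overexpresses mutant human SOD1, and entered the study only with a severity score of 1 or 2 at an age of 18 to 21 weeks, so that mice without timely motor symptoms are not represented. Controls were C57BL/6J males of matched age without the transgene. Whether they were littermates of the ALS animals is not given in the sources used here.

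The products of these genes are scaffolds under the plasma membrane. Each carries several PDZ domains, short modules that hold the tails of receptors, channels and adhesion molecules and thereby place them at synapses or at cell junctions. DLG2, also called PSD-93, belongs to the postsynaptic density of excitatory synapses, where it holds NMDA receptors and potassium channels. MAGI2, also called S-SCAM, is a synaptic scaffold that binds neuroligins, and its relative MAGI1 is best known from tight and adherens junctions. PARD3B is a relative of PARD3, a core protein of the PAR complex that sets up cell polarity. EccDNA is a circle of chromosomal DNA that has left its chromosome. Its presence shows where circles came from and says nothing about whether the gene was transcribed, so that cell type markers could not be checked in these data.

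All 4 genes are long. *Dlg2* (ENSMUSG00000052572.17, mm10, chr7:90476672-92449247, plus strand) spans 1973 kb and is the 8th longest of the 8088 genes of the table that could be placed. *Magi2* (ENSMUSG00000040003.18, chr5:19227036-20704792, plus strand) spans 1478 kb and ranks 16th. *Pard3b* (ENSMUSG00000052062.14, chr1:61638824-62642284, plus strand) spans 1003 kb and ranks 58th, and *Magi1* (ENSMUSG00000045095.16, chr6:93675455-94283917, minus strand) spans 608 kb and ranks 149th. Exons of any transcript cover 0.825% of *Dlg2*, 0.768% of *Magi2*, 1.31% of *Pard3b* and 1.74% of *Magi1*, so that nearly all of each gene is intron, and the longest stretch without an exon runs over 359 kb, 448 kb, 240 kb and 190 kb. GC content is low in *Dlg2* (38.2%), *Magi2* (39.2%) and *Pard3b* (39.4%), at the 10.6th, 16.5th and 18.0th percentile of the placed genes, and 42.7% in *Magi1*, at the 44.1th.

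The 100 bases directly before each annotated gene start were read from GRCm38.p6 on the strand of the gene. They are printed because the 4 genes, all long and mostly intron, differ in base composition where they begin. Capitals mark the GC box letters GGGCGG or, on the other strand, CCGCCC. The windows lie at chr6:94283918-94284017 for *Magi1*, chr5:19226936-19227035 for *Magi2*, chr7:90476572-90476671 for *Dlg2* and chr1:61638724-61638823 for *Pard3b*.
Magi1: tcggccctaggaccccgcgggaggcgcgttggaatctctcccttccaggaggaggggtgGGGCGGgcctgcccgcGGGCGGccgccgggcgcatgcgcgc
Magi2: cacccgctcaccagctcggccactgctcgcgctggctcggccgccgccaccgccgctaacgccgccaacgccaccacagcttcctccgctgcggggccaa
Dlg2: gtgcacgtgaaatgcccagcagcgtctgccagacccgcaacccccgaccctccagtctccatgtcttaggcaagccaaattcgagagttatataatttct
Pard3b: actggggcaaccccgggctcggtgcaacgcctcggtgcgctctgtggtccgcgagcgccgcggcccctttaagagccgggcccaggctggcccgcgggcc

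GC makes up 79% of the *Magi1* window, 75% of that of *Magi2* and 77% of that of *Pard3b*, but 53% of that of *Dlg2*, against a median of 57% over the windows of 8087 genes of the table. The *Magi1* window holds the GC box letters at 2 places and the other windows hold none, where 30.3% of all windows hold them. CG dinucleotides number 14, 14 and 13 in *Magi1*, *Magi2* and *Pard3b*, and 5 in *Dlg2*. The windows lie just outside the bounds over which circles were counted, and the values per gene do not place a circle within it, so that no value here bears on the windows themselves.

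A circle was recognized by sequencing reads split across its junction. For each gene, split reads were added up over the eccDNAs touching it, and the sum was scaled to a common gene length (4434882 bp, the length that returned whole reads), which gives PpGC, and all levels are log2(PpGC + 1). A level is thus per length, though a comparison between genes is not free of length, since the lowest level above 0 differs. Since circles with fewer than 2 split reads had been removed, the lowest level above 0 that a gene could take is 3.96 in *Magi1*, 3.30 in *Pard3b*, 2.81 in *Magi2* and 2.46 in *Dlg2*, and a level of 0 means fewer than 2 split reads on any circle. The libraries differed widely in how much eccDNA they held. ALS libraries had an eccDNA in 1301 ± 459 genes (SD, n = 9) with 74017 to 391395 split reads on genes, and control libraries in 243 ± 208 genes (SD, n = 10) with 3583 to 123388 split reads. Sequencing depth per library is not given in these values, and RCA copies of a circle are not independent molecules.

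EccDNA of *Dlg2*, *Pard3b* and *Magi1* had a higher level in ALS than in control animals, by 5.49, 5.46 and 4.13 in mean log2(PpGC + 1). Because most control values are 0, and all of them for *Magi1*, the sizes depend on the added 1 and are not fold changes. *Magi2*, which was the member most often found in controls, was 3.12 higher in ALS, which did not pass the test. The threshold was a difference above 1 with p under 0.01 in an exact permutation test of the group labels (two-sided, 92378 arrangements), and 3 of the 4 genes passed it. Of all genes of the table, 0.816% passed the same rule. Of the 232 genes longer than 500 kb, to which all 4 belong, 20.3% passed. With PpGC scaled to equal split reads per library, *Dlg2* no longer passed (3.88, exact permutation p = 0.0222), and with a pseudocount of 100 in place of 1 the differences were 1.67 for *Dlg2*, 1.80 for *Pard3b*, 1.06 for *Magi2* and 0.70 for *Magi1*, the last under the threshold of 1. None of the 3 passed with the number of genes with eccDNA per library as a covariate or after adjustment over all genes.

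**Figure D1:**
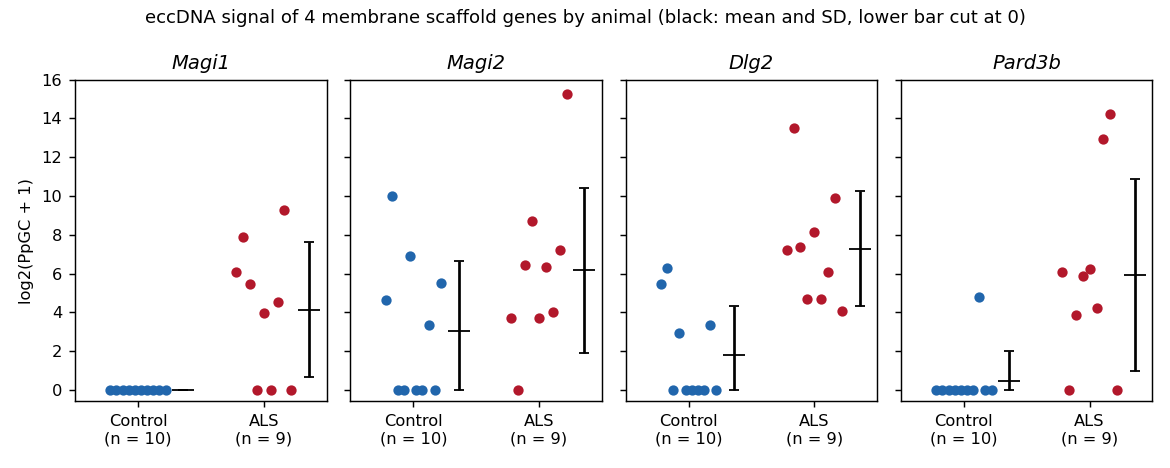
EccDNA level of each scaffold gene, as log2(PpGC + 1) on the y axis, in every control (blue) and ALS (red) library. Points are single animals, and the black marks beside them show the mean with SD, whose lower arm stops at 0. All 10 controls are at 0 for *Magi1*, 9 of 10 for *Pard3b*, and the *Dlg2* levels are above 0 in all 9 ALS animals.

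*Dlg2* was the only one of the 4 with an eccDNA in all 9 ALS animals, which 0.096% of all genes of the table had, and 4 or more controls with an eccDNA were found for 0.288%. Shares of all genes, here and for the other members, are not matched for length. The median number of ALS animals with an eccDNA was 1 over all genes and 5 over those above 500 kb. Its ALS levels ran from 4.07 over a median of 7.20 to 13.49, and its control levels from 0 over a median of 0 to 6.28, with 4 of 10 controls above 0 (5.45, 6.28, 2.95 and 3.32 in Controls 1, 2, 4 and 9). In 5 ALS animals the level was above that of every control, and the other 4 lay within the range of the controls. The means were 7.29 ± 2.99 (SD, n = 9) and 1.80 ± 2.50 (SD, n = 10), and the difference of 5.49 had an exact permutation p of 5.41e-04. It ranked 27th of all 8336 genes and 14th of the 232 long ones. Behind these levels stood 7 to 5119 split reads in ALS, with a median of 65, and at most 34 in a control. ALS 2 alone held 87.3% of the 5862 split reads on *Dlg2* in ALS. Its 5119 reads were 6.92% of the split reads summed over the placed genes in that library. Without ALS 2 the difference was 4.72 with an exact permutation p of 0.00110.

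*Pard3b*, the polarity gene, had an eccDNA in 7 of 9 ALS animals and in 1 of 10 controls, where 1.56% of all genes of the table had one in 6 or more ALS animals. ALS levels ran from 0 in ALS 2 and ALS 9 over a median of 5.87 to 14.25 in ALS 8, and Control 8 had 4.78 while the other 9 controls were at 0. Of the ALS animals, 5 lay above Control 8, and ALS 3 (3.83) and ALS 6 (4.22) lay between it and 0. The means were 5.94 ± 4.95 (SD, n = 9) and 0.48 ± 1.51 (SD, n = 10), with a difference of 5.46 and an exact permutation p of 0.00250. The 6241 split reads in ALS came mostly from ALS 8 (4421) and ALS 7 (1768), and the other 5 animals with an eccDNA had 3 to 17. Without ALS 8 the difference was 4.42 (exact permutation p = 0.00402).

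*Magi1* was seen in ALS animals only. Its levels were 6.06, 7.87, 5.48, 3.96, 4.52 and 9.29 in ALS 1, 2, 3, 5, 7 and 8, and 0 in ALS 4, 6 and 9 and in all 10 controls. The means were 4.13 ± 3.49 (SD, n = 9) and 0, and the exact permutation p was 0.00310. No fold change can be given against a group at 0. An eccDNA in 6 or more ALS animals and in no control was found for 0.348% of all genes. *Magi1* also had the fewest split reads of the 4, with 138 in ALS in all, 86 of them in ALS 8, and 2 in ALS 5, the lowest number that is kept. The 3 ALS animals without it had an eccDNA in 923, 694 and 1110 genes, ranks 8, 10 and 6 of the 19 libraries, and those with it held ranks 1 to 5 and 7.

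*Magi2*, the second MAGI gene, was present in 8 of 9 ALS animals and in 5 of 10 controls. Of all genes, 0.444% had an eccDNA in 8 or more ALS animals. Levels in ALS ran from 0 in ALS 2 over a median of 6.36 to 15.26 in ALS 9, and control levels from 0 to 9.99, with 4.64, 9.99, 6.88, 3.32 and 5.52 in Controls 1, 2, 5, 8 and 10. Only ALS 9 lay above all controls. The means were 6.16 ± 4.26 (SD, n = 9) and 3.04 ± 3.62 (SD, n = 10), and the difference of 3.12 had an exact permutation p of 0.101. ALS 9 held 98.1% of the 13319 split reads in ALS, and without it the difference was 1.98 (exact permutation p = 0.213). Among the animals with a *Magi2* eccDNA the level was 6.93 ± 3.83 (SD, n = 8) in ALS and 6.07 ± 2.54 (SD, n = 5) in controls. These values leave out the animals without one, so that neither a difference nor a likeness of the groups follows from them. An eccDNA in 5 or more controls was rare, at 0.072% of all genes, or 2.59% of the genes over 500 kb.

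**Figure D2:**
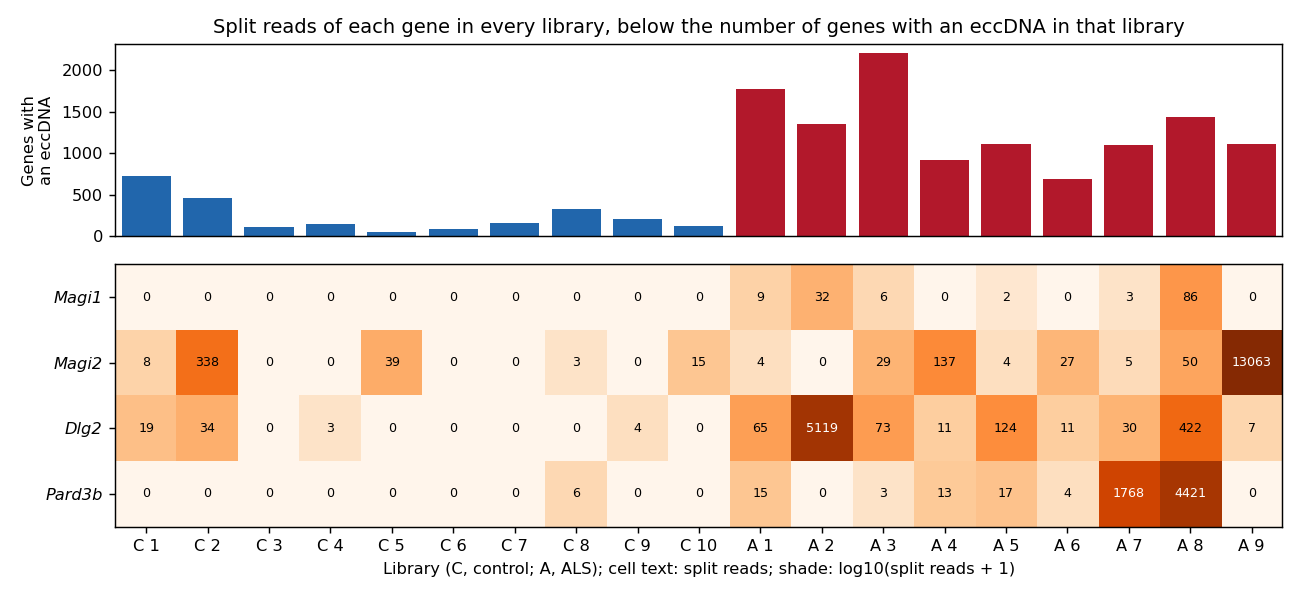
Upper bars count the genes with eccDNA in each of the 19 libraries, controls (C, blue) and ALS (A, red). The grid under them gives the split reads on each scaffold gene (rows) in the same libraries, with the count printed in each cell and the shade on a log10 scale. Most counts lie under 150, and 1 or 2 libraries hold most of the reads of a gene, among them A 9 with 13063 on *Magi2* and A 2 with 5119 on *Dlg2*.

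The highest levels of the 4 genes were found in 3 animals. *Dlg2* peaked in ALS 2, *Magi2* in ALS 9, and *Pard3b* and *Magi1* in ALS 8. ALS 2 lacked both *Magi2* and *Pard3b*. ALS 9, where *Magi2* took up 3.34% of the split reads on placed genes, lacked *Magi1* and *Pard3b*. Together the 4 genes took up 0.0152% to 6.96% of the split reads on placed genes in an ALS library, with a median of 0.151%. In a control they took up 0 to 2.10%, with a median of 0.0198%. Circles outside placed genes are not in these sums, and a circle touching overlapping genes counts for each. The control share was highest in Control 2, where *Magi2* made up 1.91%.

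By mean level in ALS, *Dlg2* (7.29) came first, before *Magi2* (6.16), *Pard3b* (5.94) and *Magi1* (4.13). Neighbours in this order did not differ beyond their spread, and with a pseudocount of 100 *Pard3b* came first (*Dlg2* minus *Pard3b* -0.0079, *Magi2* minus *Pard3b* -0.22). Of the 6 pairs, compared within the 9 ALS animals by a two-sided exact sign-flip permutation test, 1 passed after Benjamini-Hochberg adjustment over the pairs. *Dlg2* was higher than *Magi1* in 9 of 9 animals, by 3.16 ± 1.85 (SD), with p = 0.00391, the smallest the test can give, and an adjusted p of 0.0234. The other differences were 0.22 to 2.02, with SDs of 4.85 to 7.01 and adjusted exact p-values of 0.722 to 0.945. Whether *Magi2* differed less between ALS and control than the other genes was tested as well. The *Dlg2* difference was higher by 2.37, and the *Magi2* difference minus that of *Pard3b* was -2.34 and minus that of *Magi1* -1.01, with exact permutation p-values of 0.350, 0.381 and 0.693 (0.657, 0.657 and 0.832 adjusted over the 6 pairs), so that the differences of the 4 genes were not shown to be unequal.

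An ALS animal had an eccDNA in 3.33 ± 0.87 of the 4 genes (SD, n = 9) and a control in 1.00 ± 0.82 (SD, n = 10). All 4 were present in 5 ALS animals, 3 in 2 and 2 in 2. No control had more than 2, and Controls 3, 6 and 7 had none. *Dlg2* and *Magi2* occurred together in 8 ALS animals and 2 controls, and *Dlg2* and *Pard3b* in 7 ALS animals and no control. *Dlg2* and *Magi1* did so in 6 ALS animals and no control. With *Dlg2* in all 9 ALS animals, these ALS counts are those of the other gene alone and show no tie between the genes. Read number and members did not go in parallel in every library. Control 7 had 123388 split reads on genes and none of the 4, whereas ALS 2 had 74017 split reads and 2 of the 4.

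**Figure D3:**
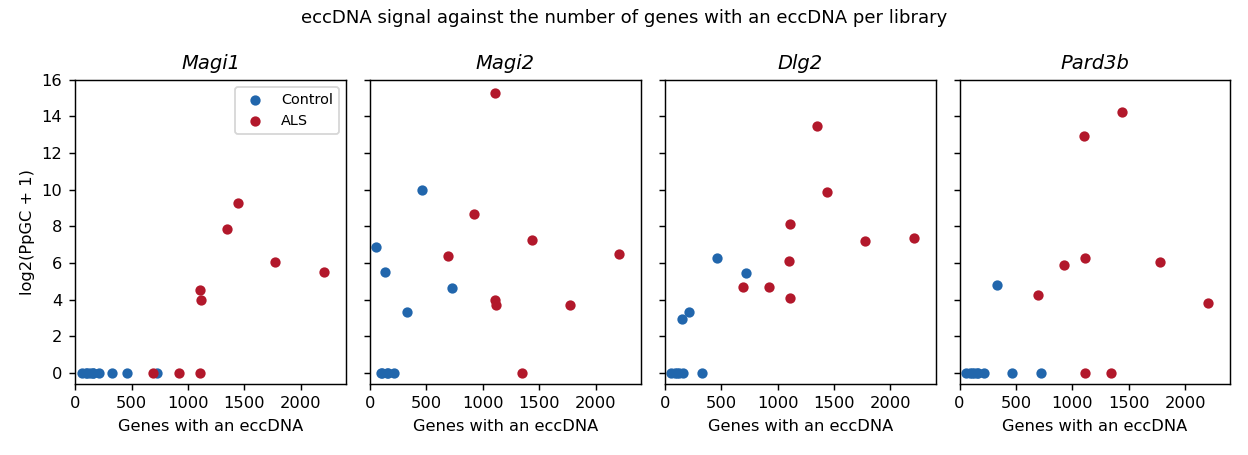
EccDNA level of each scaffold gene, log2(PpGC + 1) on the y axis, against how many genes had an eccDNA in that library on the x axis, 1 point per animal (controls blue, ALS red). Controls lie at 57 to 723 genes and ALS animals at 694 to 2204, and *Magi1* is above 0 only in libraries with 1105 genes or more.

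In 8 of 9 ALS libraries more genes had an eccDNA than in any control. With the number of such genes as a covariate in limma, the ALS difference was 0.13 (SE 1.91, p = 0.945) for *Magi1*, 1.63 (SE 2.15, p = 0.454) for *Dlg2*, 3.20 (SE 3.08, p = 0.308) for *Magi2* and 5.34 (SE 2.84, p = 0.0718) for *Pard3b*. None of the 4 passed the threshold in this fit, which 0.408% of all genes did. With the replicate number as a block, 1.08% of all genes passed, and the same 3 of the 4. The number and the group overlap little, since the lowest ALS library had 694 genes and the second highest control 462, so that a change of a scaffold gene and a change of eccDNA as a whole cannot be told apart in most of these samples. Adjusted over all 8336 genes, none of the 4 passed either, with limma adjusted p-values of 0.0601 for *Dlg2*, 0.192 for *Pard3b*, 0.195 for *Magi1* and 0.471 for *Magi2*, where 0.132% of all genes passed. At an unadjusted limma p under 0.05 there were 3 of the 4, against 7.33% of all genes and 54.3% of those over 500 kb. The exact p adjusted over all genes was 0.284 for *Dlg2*, 0.487 for *Pard3b* and *Magi1*, and 0.581 for *Magi2*. With the smallest p the exact test allows, 1 gene alone would come to 0.0902 after this adjustment and could not pass 0.05. As presence or absence alone, by Fisher's exact test, two-sided, p was 0.00310 for *Magi1*, 0.00548 for *Pard3b*, 0.0108 for *Dlg2* and 0.141 for *Magi2*.

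**Figure D4:**
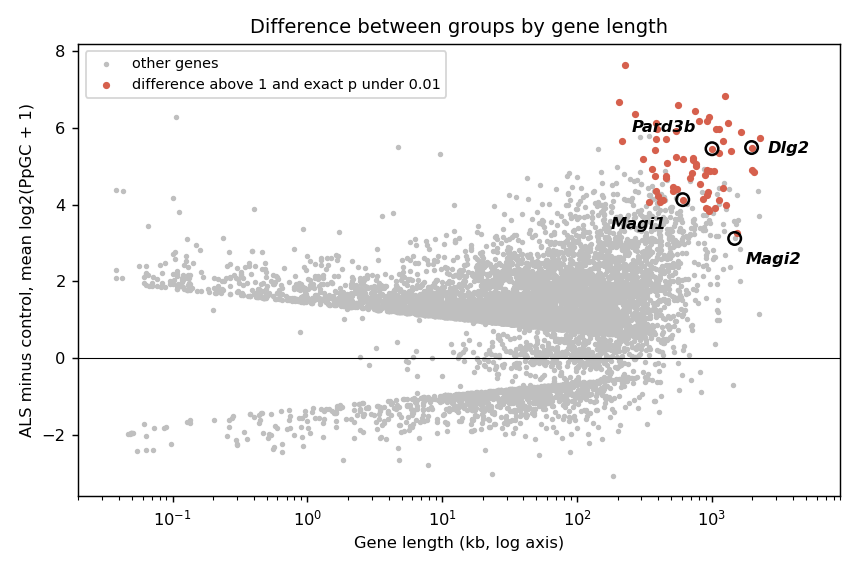
ALS minus control difference of mean log2(PpGC + 1) (y axis) against gene length in kb (x axis, log scale) for the 8088 placed genes, 1 point per gene. Red points passed the exact test, grey points did not, and circles mark the 4 scaffolds. Of the 232 genes over 500 kb, 47 passed, and *Magi2* is the 1 scaffold that did not.

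Long genes as a whole had higher differences. The median ALS minus control difference was 1.19 over all genes of the table and 3.10 over the 232 genes above 500 kb. *Dlg2* and *Pard3b* lay above this long-gene median by more than 2 on the log2 scale, *Magi1* ranked 51st of the 232, and *Magi2* ranked 115th, at its middle.

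The chromosomes of 3 of the genes contributed evenly to the ALS libraries, and that of *Pard3b* did not. Chromosome 1 held from 1.60% of the placed genes with an eccDNA in ALS 2, which lacked *Pard3b*, to 13.8% in ALS 4, with a variance of the counts over the ALS libraries of 20.6 times that of counting alone (chi-square over its degrees of freedom). For chromosomes 5, 6 and 7 the same value was 0.401, 0.438 and 1.11, and their shares ran from 5.25% to 7.62%. Without ALS 2, the *Pard3b* difference was 6.20 with an exact permutation p of 7.08e-04, and its difference without each other animal was at least 4.42. Of all genes with an eccDNA, placed or not, chromosome 1 held 5.41% in ALS 9, which also lacked *Pard3b*. It held 6.46% in ALS 8, where the *Pard3b* level was highest, and ALS 4 had 13 split reads on *Pard3b*. The part of the chromosome in the *Pard3b* level was not tested.

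Of the genes annotated within the bounds of the scaffolds, 2 were in the table, and both had an eccDNA in ALS 1 only. *Gm45159*, a long noncoding RNA gene (chr7:90887072-90940052, plus strand) in 2.69% of the length of *Dlg2*, held 54 split reads where *Dlg2* held 65 in that library (83.1%), and this stretch of 52981 bp begins 410400 bp from the *Dlg2* start. *Pard3bos1* (chr1:61767415-61851540, minus strand), antisense to *Pard3b*, held 3 of the 15 split reads of *Pard3b* in ALS 1, or 20.0%. A circle in shared sequence is counted for both genes, since a circle has no strand. In all other libraries, the circles of *Dlg2* and *Pard3b* lay outside these stretches, or were left out by the minimum of 2 split reads. *Magi1* and *Magi2* had no overlapping gene in the table.

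Relatives and partners of the scaffolds were looked at in 4 lists of genes, none of which holds the 4 genes themselves. Of 86 genes listed, 53 had an eccDNA in any library. The mean was higher in ALS for 51 of these and lower for 2, where 86.5% of all genes and 97.0% of those over 500 kb had a higher mean. The 2 lower ones were *Dlgap4* (difference -0.54) and *Pdzd2* (-0.14). By the rule of the study's methods, applied here to the deposited values, 2 of the 53 were up in ALS (3.77%). The rule asks for a difference above 1 and p under 0.01 in a test with equal variances. By it, 1.33% of all genes and 24.1% of those over 500 kb were up. The paper's own list of genes up in ALS is longer and holds further genes of these lists, among them *Pdzd2*. Of the 4 scaffolds it holds *Dlg2* and *Magi1*, and not *Pard3b* or *Magi2*. The paper also counts *Dlg2* and *Magi1* among the listed genes with an altered protein level in ALS. The list genes had a median length of 180 kb and a median difference of 1.27. The other MAGUK scaffolds, the family of *Dlg2* and the MAGI genes, had 11 genes in the table, all higher in ALS, with a median difference of 0.89 and 0 up by that rule. *Dlg5* alone of them had an exact p under 0.05, as 3.72% of all genes did with a higher mean in ALS, and limma also gave 1, where it gave 7.33% of all genes. The 9 genes of the polarity complexes had a median difference of 1.11 and 0 up. None had an exact p under 0.05, and limma gave 1, beside the same 3.72% and 7.33% of all genes.

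The direct relatives, named for their kinship, were found in fewer ALS animals than the scaffolds. *Magi3* was present in 3 ALS animals and 1 control (difference 1.94, exact permutation p = 0.195), *Dlg1* in 1 ALS animal, *Dlg5* in 4 ALS animals and no control (3.69, exact permutation p = 0.0325), and *Pard3* in 3 ALS animals and 1 control (1.58, exact permutation p = 0.389). They are also shorter, from 112 kb in *Dlg5* to 548 kb in *Pard3*. None passed the threshold, and their differences were not tested against those of the scaffolds.

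Partners of DLG proteins in the postsynaptic density had the highest median among the lists. *Dlgap2*, which links DLG proteins to SHANK scaffolds, was present in 7 of 9 ALS animals and in no control, with means of 6.45 ± 4.97 (SD, n = 9) and 0 (exact permutation p = 7.14e-04, limma adjusted p = 0.0601). *Dlgap1* was present in 7 ALS animals and 2 controls, with 5.55 ± 4.29 (SD, n = 9) and 1.21 ± 2.71 (SD, n = 10), which did not pass (exact permutation p = 0.0225). Both are long genes, at 752 kb and 852 kb. Their relative *Dlgap4*, at 151 kb, was present in 1 ALS animal and 1 control and had a lower mean in ALS (difference -0.54). Of the 13 partners in the table, 12 had a higher mean in ALS (86.5% of all genes did), with a median of 1.64, and 1 was up (7.69%, against 1.33% of all genes and 24.1% of those over 500 kb). An exact p under 0.05 with a higher mean in ALS was found for 3 of them and a limma p under 0.05 for 4 (23.1% and 30.8%), against 3.72% and 7.33% of all genes and 46.6% and 54.3% of those over 500 kb. Among 20 other genes with PDZ domains 19 had a higher mean, with a median of 1.47, and *Pdzrn4*, a ligase with PDZ domains, was the 1 up, with an eccDNA in 5 ALS animals and no control and 4.35 ± 4.73 (SD, n = 9) in ALS. Its exact permutation p was 0.0108, above the threshold of the exact rule. This 1 of 20 is 5.00%, beside the same 1.33% and 24.1%, and 3 of the 20 had an exact p and 5 a limma p under 0.05 with a higher mean in ALS (15.0% and 25.0%).

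**Figure D5:**
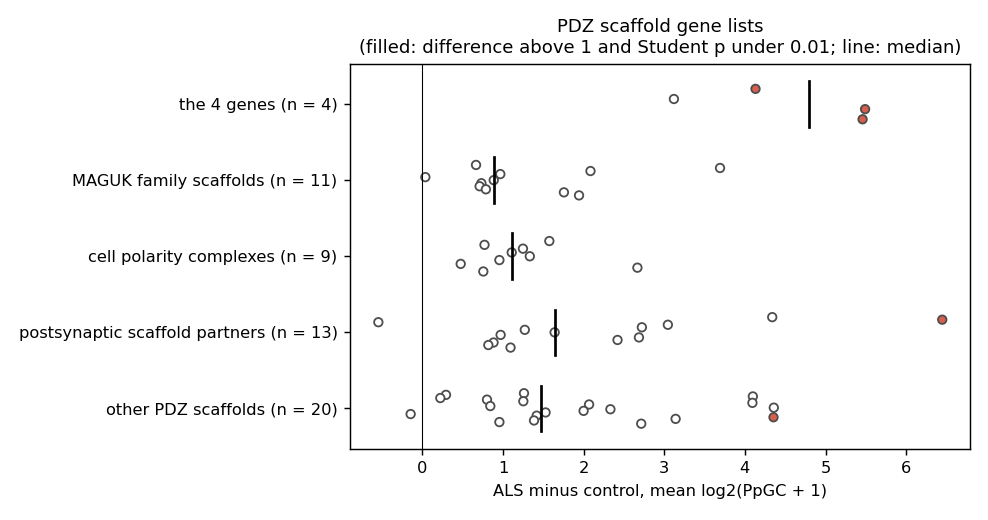
ALS minus control difference of mean log2(PpGC + 1) (x axis) for each gene of the 4 lists and for the 4 scaffolds, 1 point per gene. Filled points are up by the rule of the methods, and vertical marks show the median of each row. The list medians run from 0.89 to 1.64, and the scaffolds lie at 3.12 to 5.49, with *Magi2* the 1 not filled.

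The genes whose eccDNA occurred in most nearly the same libraries were found by the share of libraries with both genes among those with either (Jaccard), over 19 libraries and 1275 genes present in 3 or more. For *Magi1* these were *Camta1* and *D430041D05Rik*, each sharing 6 of 7 libraries (0.857). For *Magi2* they were *Cntnap5b* with 11 of 13 (0.846) and *Fgfr2* with 12 of 15 (0.800). *Lingo2* shared 12 of 13 libraries with *Dlg2* (0.923) and *Galnt2l* 12 of 14 (0.857), and *Arhgap26* and *Foxp2* each shared 7 of 8 with *Pard3b* (0.875). These shares are descriptions of the same 19 libraries, whose differences in total eccDNA all the genes have in common.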

How the data were processed

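EccDNA from cervical spinal cord of 9 ALS and 10 control animals was enriched with exonuclease V, amplified by RCA, sequenced and mapped to mm10 by the authors, who merged circles within 10 bp, removed those with fewer than 2 split reads, assigned circles to GENCODE genes with bedtools, and deposited log2(PpGC + 1). This log2 value accounts for gene length but was not normalized across libraries. Which GENCODE release was used is not given in the sources used here. The groups follow the letter codes of the samples' titles, A for ALS and C for control. Samples are single animals.

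Levels were used as deposited. Names were matched to GENCODE M21, which placed 8088 of 8336 genes. Divided by the length factor, 98.9% of values above 0 were whole split reads within 0.02. Totals of these reads stand in for depth and limit precision, counting error only.

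Main tests were the exact permutation test and sign flips (512), two-sided, and over all genes Student's test with the methods' thresholds. limma was run on all genes. The members, lists and tests were chosen with earlier results of these data known. Genes named are the 4 scaffolds, genes overlapping them, list genes that passed or were present in 6 or more ALS samples, and the 2 nearest by Jaccard share, with ties settled by the smallest mean difference of levels. The direct relatives are named in addition, and so are genes of counts spelled out, chosen after their values were seen. Alternatives were limma, the sample load (genes with an eccDNA per library), a replicate block, equal split read totals, no length scaling, a pseudocount of 100, presence, adjustment over all genes, a minimum of 3 samples and leaving out each sample. The comparison of the 4 differences with each other was added after seeing the data. Student's test, the exact test and the limma fits were run on simulated data. There the values of each gene were permuted over samples separately, and some genes were raised in all ALS samples. Differences in eccDNA between whole libraries were thus absent, and the exact test was run on raised genes only. How the tests behave under such library differences was not tested. R 4.3.3 with limma 3.58.1 and Python 3.11.15 (SciPy 1.17.1, pandas 2.3.3, NumPy 2.4.6, matplotlib 3.10.9) were used.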

Additional observations from a re-analysis of the deposited data

Results flagged for a closer look

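The *Pard3b* level of 4.78 in Control 8 lay apart from the other 9 controls, which were at 0, by the gap between the extreme sample and its neighbour over the range of the group. Of the 7 groups looked at in this way it was the 1 found. The rate of about 1 in 20 that this rule has by chance does not hold here, since any single animal above 0 among animals at 0 meets the rule. Control 8 had an eccDNA in 330 genes, the third highest number among the controls, and 6 split reads on *Pard3b*. Without this animal the *Pard3b* difference was 5.94 (exact permutation p = 0.00226).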

How the results depend on the processing

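After adjustment over all genes, which changes p-values only, no difference passed (*Magi1* 4.13, limma adjusted p = 0.195 and exact 0.487; *Dlg2* 5.49, 0.0601 and 0.284; *Pard3b* 5.46, 0.192 and 0.487). With the sample load as covariate in limma the differences were 0.13 (*Magi1*), 1.63 (*Dlg2*) and 5.34 (*Pard3b*), none past the threshold. With PpGC scaled to equal split read totals per sample *Dlg2* had 3.88 (exact permutation p = 0.0222) and *Magi2* 1.35 (exact permutation p = 0.513). *Pard3b* (4.70) passed the threshold, and so did *Magi1* (3.64). For *Magi1* the scaling could change the size of the difference but not the exact p. No control had a *Magi1* eccDNA and scaling cannot create one, so that this p was fixed by presence alone. The pass of *Magi1* is therefore no check on split read totals. As presence *Dlg2* was 60.0 percentage points more frequent in ALS (Fisher's exact p = 0.0108). With a pseudocount of 100 *Magi1* differed by 0.70, below the threshold of 1, *Dlg2* by 1.67, *Pard3b* by 1.80 and *Magi2* by 1.06, and the order turned for *Dlg2* minus *Pard3b* (-0.0079) and *Magi2* minus *Pard3b* (-0.22). Without length scaling, as log2(split reads + 1), the differences were 2.36 (*Magi1*), 2.53 (*Magi2*), 4.78 (*Dlg2*) and 4.07 (*Pard3b*). *Magi2* passed the threshold under no setting. Student's test called 111 genes up over the table, the exact test 68, Student's test after adjustment 6 and, in genes of 3 or more samples, 37, and limma with the load 34. limma without it called 166, and equal split reads gave 81. The causes were not tested.

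Leaving out each sample in turn changed no call of the 4 genes, with differences of 3.49 to 4.65 (*Magi1*), 1.98 to 3.89 (*Magi2*), 4.72 to 5.99 (*Dlg2*) and 4.42 to 6.20 (*Pard3b*). The replicate numbers were not shown to pair samples, since deviations of the 9 same-numbered pairs correlated at -0.0205 to 0.0226. With the replicate block in limma the differences were 4.13, 3.40, 5.29 and 5.41 in the same order, and the block changed no call of the 4 and gave 90 genes up. The median number of split reads in ALS was 3, 27, 65 and 13 in the same order, so that many levels rest on few reads.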

Other observations

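*Magi2* was 1 of 6 genes of the table with an eccDNA in 5 or more controls, which were named after their values were seen. The others were *Auts2* (6 controls, 7 ALS animals), *Fhit* (6 and 8), *Fgfr2* (5 and 9), *Fars2* (5 and 6) and *Lrmda* (5 and 5). All 6 are annotated over more than 500 kb.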
